A study of Mus musculus with 5 samples.

Results

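The genes described here are 10 mouse genes of the cyclin, CDC25 and meiotic division machinery: Ccna1, Ccna2, Ccnb1, Ccnb2, Cdc25a, Cdc25b, Cdc25c, Cdk1, Cks2 and Hspa2. They were listed by name, out of 21779 protein-coding genes placed on mm10, and every deposited ZFP541 peak that overlapped a gene body or the 10 kb on either side was taken. Chromatin immunoprecipitation with sequencing (ChIP-seq) had been done with an antibody raised against the N-terminal part of ZFP541, a germ cell protein with zinc fingers, on pachytene and diplotene spermatocytes from testes of adult C57BL/6 mice, enriched by sedimentation (STA-PUT). The knockout group was 1 library from Zfp541-/- cells, and the wild-type (WT) ChIP group was 2 libraries. A further 2 WT input libraries, made without antibody, were not analysed here. All groups share the strain, the age class and the cross-linking with 1% formaldehyde. The labels do not say how the knockout allele was made or whether the replicates came from separate animals, and peak lists hold no expression values against which the enriched cells could be checked.

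Entry into a meiotic division is driven by CDK1, a kinase that works only when bound to a cyclin. The kinases WEE1 and PKMYT1 hold CDK1-cyclin complexes inactive by phosphorylation, and the CDC25 phosphatases remove those phosphates. CKS proteins are small subunits that bind CDK1. In mouse spermatocytes HSPA2, a testis HSP70 chaperone, is needed for CDK1 to assemble with cyclin B, and cyclin A1 is needed to pass from late prophase into the first division.

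ZFP541 peaks lay at 5 of the 10 genes in WT spermatocytes, and at the same 5 genes in both replicates: Ccna2, Cdc25a, Cdc25b, Cks2 and Hspa2. The knockout list had no peak at any of the 10. The other members, Ccna1, Ccnb1, Ccnb2, Cdc25c and Cdk1, had no peak in any of the 3 lists. Among all protein-coding genes, 0.34% had a knockout peak in the same kind of window, against 33.8% with a peak in WT replicate 1 and 39.4% in WT replicate 2. The absence of knockout peaks from these 10 genes is therefore close to the background of the genome. Overlapping WT peaks of the 2 replicates were joined into shared regions, without those that a knockout peak overlapped. Such a region was found at the same 5 of 10 genes, beside 29.3% of all protein-coding genes. The 10 genes span 3127 to 18572 bp, and 26.9% of the protein-coding genes in that length range had a region. With 10 genes and 1 knockout library, no test was run.

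Altogether the windows held 16 WT peaks, 7 in replicate 1 and 9 in replicate 2, and 12 of the 16 belonged to the 5 shared regions. The nearest knockout peak lay between 1.94 Mb (Hspa2) and 22.9 Mb (Cks2) from the gene. The knockout list began at a −log10 p of 4.47, and 5 of the 16 WT peaks were weaker than that, a strength at which the knockout list holds no peak at all. Fold enrichment here is the authors' ratio of the ChIP signal at a peak over the background of the peak caller. Its median over all peaks was 3.33 in the knockout list, 4.29 in WT replicate 1 and 4.03 in WT replicate 2. The lists carry no read depth, and a site without a listed peak is not shown to be unbound.

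**Figure D1:**
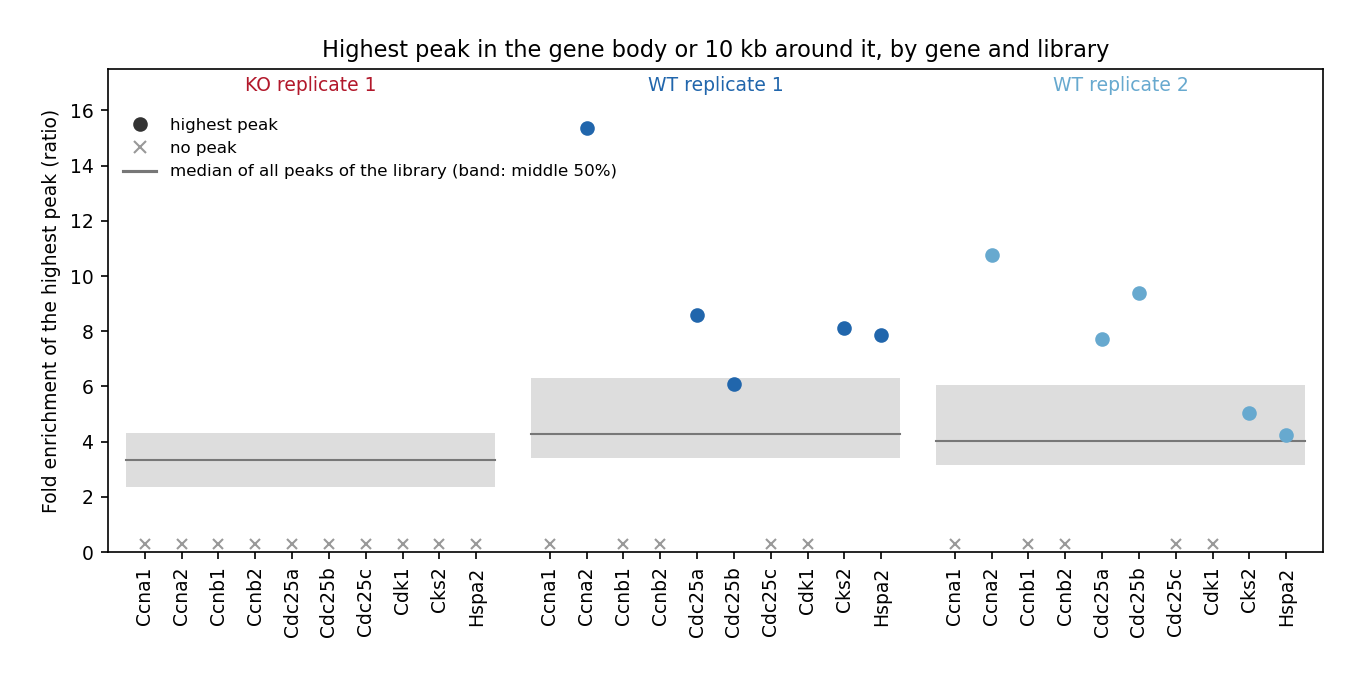
Fold enrichment (ratio) of the highest peak in the body or 10 kb around each of the 10 genes, in the knockout library and in both WT libraries; points are single peaks, crosses mark genes with no peak, and the line and band give the median and the middle 50% of all peaks of that library. All 10 genes are crosses in the knockout, and Ccna2 is highest in both WT libraries, at 15.4 and 10.8.

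Among the cyclin genes, Ccna2 carried the strongest peak of the group and Ccna1, Ccnb1 and Ccnb2 carried none. Ccna2 encodes cyclin A2, the A-type cyclin of dividing somatic cells (gene on chromosome 3, 36564865 to 36573038). The nearest knockout peak lay 6.05 Mb from it. WT replicate 1 had a peak 1079 bp wide at 36571071 to 36572149, with a fold of 15.4, a −log10 p of 42.6 and a −log10 q of 37.7. It ranked 93rd of the 8236 peaks of that library by fold. WT replicate 2 had a peak 935 bp wide at 36571195 to 36572129, with a fold of 10.8, a −log10 p of 29.2 and a −log10 q of 25.1, which ranked 680th of 10371. The 2 summits were 34 bp apart and lay inside the gene, 1128 and 1162 bp from its higher-coordinate end. The downstream end of Bbs7, which lies on the minus strand, is 103 bp beyond that end, and neither peak reached it. A weaker peak of replicate 2 only, 351 bp wide with a fold of 3.36, lay deeper in the gene at 36569879 to 36570229.

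Ccna1 encodes cyclin A1, which in mice is largely restricted to male germ cells (chromosome 3, 55045469 to 55057634). The nearest peak was 3.77 Mb away in the knockout, against 294 kb away in WT replicate 1 and 54.5 kb away in WT replicate 2, where it lay 145 bp from an end of Spg20. Ccnb1 encodes cyclin B1, the main partner of CDK1 at division (chromosome 13, 100778739 to 100786486). Its nearest WT peaks lay 127 kb away in replicate 1, at an end of Ak6, and 46.6 kb away in replicate 2, at an end of Slc30a5. Ccnb2 encodes cyclin B2 (chromosome 9, 70407689 to 70421554). Its nearest WT peaks were 81.8 and 81.3 kb away in replicates 1 and 2, both near the start of Rnf111, with folds of 4.29 and 4.70. The A-type cyclin genes thus differed from each other in whether a peak was called, and the B-type genes did not.

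The CDC25 phosphatase genes showed 3 different pictures. Cdc25a had a peak at its start, Cdc25b had peaks only near a neighbouring gene, and Cdc25c had none. Cdc25a (chromosome 9, 109875518 to 109893895) lay 7.33 Mb from the nearest knockout peak. In WT replicate 1 its peak was 621 bp wide at 109875341 to 109875961, with a fold of 8.57 and a −log10 q of 14.5. In WT replicate 2 it was 959 bp wide at 109875341 to 109876299, with a fold of 7.72 and a −log10 q of 12.7. Both peaks began at the same base, and their summits lay 146 and 32 bp downstream of the transcription start in the RefSeq promoter table. These folds exceeded those of 87.5% and 84.2% of the peaks of their libraries, counting ties at their mean rank. No other gene lay within 10 kb, apart from a microRNA gene inside Cdc25a.

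Cdc25b, which mouse oocytes need to resume meiosis (chromosome 2, 131186436 to 131198511), had no peak in its body in any library. No knockout peak lay within 8.50 Mb. WT replicate 1 had 3 peaks in the 10 kb before the gene, with folds of 2.62, 6.07 and 3.57, and WT replicate 2 had 2, with folds of 3.02 and 9.40. The strongest peaks, at 131179235 to 131180486 and 131178525 to 131181145, overlapped each other and, with the other replicate 1 peaks, made up 1 region 3467 bp wide that ended 4445 bp from Cdc25b. The replicate 1 summit lay 22 bp from the start of Cenpb and 37 bp from the replicate 2 summit. Cenpb encodes a centromere-binding protein and is transcribed away from Cdc25b. The start of Cdc25b was 6859 and 6896 bp from the summits of replicates 1 and 2. This region is therefore counted for Cdc25b by its window only. Cdc25c (chromosome 18, 34732993 to 34751564) had no peak in its window, and the nearest WT peaks were 109 and 108 kb away, near an end of Egr1, with folds of 10.2 and 13.1. Cdc25c and Ccna2 have no entry in the RefSeq promoter table, which gives strand and start sites for the other 8 genes.

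The kinase gene and the gene of its small subunit differed too. Cdk1 (chromosome 10, 69335146 to 69352912) had no peak in its window. A WT peak lay 46.0 kb away in replicate 1 and 45.8 kb away in replicate 2, with folds of 5.36 and 5.43, and the summits lay 46384 and 46217 bp from Cdk1, which was the protein-coding gene with the nearest end. The nearest knockout peak was 2.94 Mb away. Cks2 encodes a CDK-binding subunit that mice of both sexes need to complete the first meiotic division (chromosome 13, 51645232 to 51650662). Cks2 lay 22.9 Mb from the nearest knockout peak. In WT replicate 1 the peak at its start was 668 bp wide, at 51644753 to 51645420, with a fold of 8.13 and a −log10 q of 16.6. In WT replicate 2 it was 1147 bp wide, at 51644012 to 51645158, with a fold of 5.03 and a −log10 q of 6.49. The summits lay 170 and 209 bp upstream of the transcription start and 39 bp apart, and the replicate 2 peak ended 74 bp before the gene. The 406 bp that the peaks shared were 60.8% of the replicate 1 peak and 35.4% of the replicate 2 peak. A second peak of replicate 2 only, with a fold of 3.36, lay 801 bp beyond the other end of Cks2 and reached the start of Secisbp2.

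Hspa2 (chromosome 12, 76403812 to 76406938), the chaperone gene of the group, had no knockout peak within 1.94 Mb. In WT replicate 1 a peak 1202 bp wide at 76402980 to 76404181 had a fold of 7.86 and a −log10 q of 12.4. In WT replicate 2 a peak 1135 bp wide at 76402940 to 76404074 had a fold of 4.23 and a −log10 q of 3.65. The 2 peaks covered nearly the same bases, but their summits were 582 bp apart, the widest distance among the 5 regions. Both summits lay upstream of the gene, 134 and 716 bp from its lower-coordinate end, and 692 and 1274 bp upstream of the transcription start in the RefSeq promoter table. The region reached to within 1 kb of that start, but the replicate 2 summit did not. The higher-coordinate end of the lncRNA gene 4930426I24Rik, whose strand is not given, lies inside Hspa2. The lncRNA gene overlaps Hspa2 by 183 bp, and both summits also lay within the lncRNA gene. A weak peak of replicate 2 only, 234 bp wide with a fold of 2.69, lay in the body of Hspa2 at 76405772 to 76406005.

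**Figure D2:**
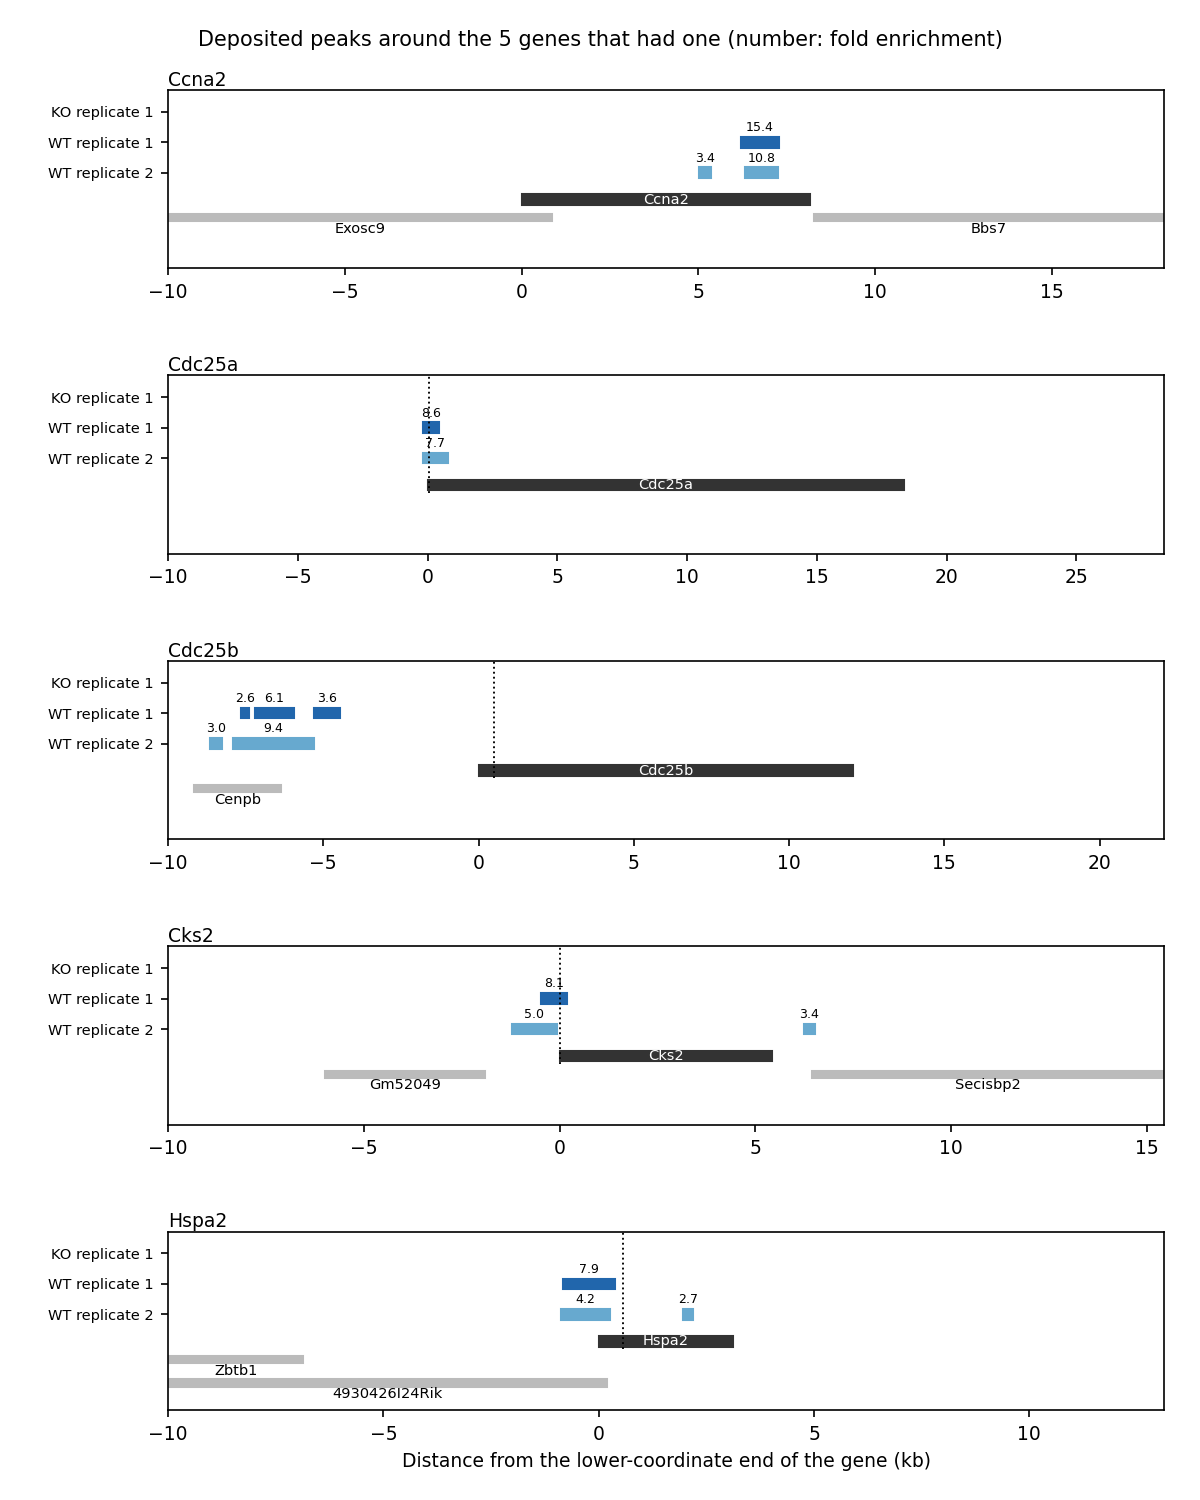
Deposited peaks around Ccna2, Cdc25a, Cdc25b, Cks2 and Hspa2 in the knockout library (red; no peak) and in both WT libraries (dark and light blue), by distance in kb from the lower-coordinate end of each gene; numbers are fold enrichments, black bars the genes, grey bars protein-coding and lncRNA neighbours, and dotted lines the RefSeq transcription start where the table gives it. Peaks of both WT libraries lie at the start of Cdc25a and Cks2, over the lower-coordinate end of Hspa2, inside Ccna2 and over the start of Cenpb near Cdc25b.

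The 5 regions also differed in how alike the replicates were. The fold was higher in replicate 1 at 4 of them, with ratios of replicate 1 over replicate 2 of 1.43 at Ccna2, 1.11 at Cdc25a, 1.61 at Cks2 and 1.86 at Hspa2, and lower at the Cdc25b window, with 0.646. Over all 5325 shared regions of the genome, replicate 1 had the higher fold at 40.9%, the median ratio was 0.931 and the middle 50% ran from 0.753 to 1.15. Ccna2, Cks2 and Hspa2 lay above that range and the Cdc25b window below it. Ranked by the mean percentile of fold within each replicate, the order was Ccna2 (96.1), Cdc25a (85.8), the Cdc25b window (81.6), Cks2 (75.6) and Hspa2 (70.1). Neighbours in this order were not separated by more than the distance between replicates, except Ccna2, whose percentiles of 98.8 and 93.4 were both above those of the other 4 regions.

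Among the 8 genes in the RefSeq promoter table, a shared region lay within 1 kb of the start at 3 of 8, namely Cdc25a, Cks2 and Hspa2. Of 17492 protein-coding genes with a start in that table, 21.7% had such a region. The promoter entries, from 250 bases before to 50 bases after the start, are printed first for these 3 genes. They show the sequence under or beside the peaks. Capitals mark matches, on either strand, to short elements known from promoters of cell cycle genes: the CHR element (TTTGAA or, alternatively, TTCGAA), the CCAAT box (CCAAT, read as ATTGG on the other strand), E2F (TTTCCCGC or, alternatively, TTTGGCGC), MYB (CCGTTA) and the GC box (CCGCCC). The elements CRE (TGACGTCA) and E-box (CACGTG) were searched as well and matched no entry of the 8 genes. Matches to the same or to different elements were allowed to overlap. Positions are counted from the first base of each entry, and the transcription start follows the first 250 bases. The Cdc25a entry is chr9:109875329-109875628, plus strand, the Cks2 entry chr13:51644982-51645281, plus strand, and the Hspa2 entry chr12:76404120-76404419, plus strand (GRCm38.p6, the assembly of mm10).
Cdc25a: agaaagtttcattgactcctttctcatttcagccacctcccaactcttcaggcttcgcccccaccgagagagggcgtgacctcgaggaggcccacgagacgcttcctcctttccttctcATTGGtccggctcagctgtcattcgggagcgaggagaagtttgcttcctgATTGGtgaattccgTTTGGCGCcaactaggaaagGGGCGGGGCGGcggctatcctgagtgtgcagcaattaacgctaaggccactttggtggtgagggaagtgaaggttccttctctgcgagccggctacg
Cks2: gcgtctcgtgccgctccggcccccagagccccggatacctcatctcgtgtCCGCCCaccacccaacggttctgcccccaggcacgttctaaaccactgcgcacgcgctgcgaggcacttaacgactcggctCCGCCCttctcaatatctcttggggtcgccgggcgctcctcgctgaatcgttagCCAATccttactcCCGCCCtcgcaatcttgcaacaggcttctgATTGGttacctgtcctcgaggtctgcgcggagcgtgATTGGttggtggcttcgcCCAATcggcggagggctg
Hspa2: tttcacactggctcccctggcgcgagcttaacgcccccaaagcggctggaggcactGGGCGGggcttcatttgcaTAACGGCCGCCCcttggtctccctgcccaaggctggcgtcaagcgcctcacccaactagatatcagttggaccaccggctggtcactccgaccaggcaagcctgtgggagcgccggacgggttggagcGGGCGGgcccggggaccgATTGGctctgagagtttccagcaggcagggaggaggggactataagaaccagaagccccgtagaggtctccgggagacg
No base of these entries lay in a knockout peak. Of the 300 bases of the Cdc25a entry, 288 lay in the peak of each WT replicate. The Cks2 entry lay wholly in the replicate 1 peak, and 177 of its bases lay in the replicate 2 peak. Of the Hspa2 entry, 62 bases lay in the replicate 1 peak and none in the replicate 2 peak, so the Hspa2 region was mostly upstream of what is printed. Cdc25a had an E2F match at bases 184 to 191, between a CCAAT box match and a pair of overlapping GC box matches. Cks2 had 4 matches to the CCAAT box and 3 to the GC box, and Hspa2 had a MYB match at bases 76 to 81 directly followed by a GC box match.

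For contrast, entries of 3 genes without a peak are printed with the same marks: Cdk1 (chr10:69352863-69353162, minus strand), Ccnb2 (chr9:70421505-70421804, minus strand) and Ccna1 (chr3:55055006-55055305, minus strand). Cdk1 and Ccnb2 were the entries with 2 CHR matches each, and Ccna1 had the most CG dinucleotides of the 8 entries.
Cdk1: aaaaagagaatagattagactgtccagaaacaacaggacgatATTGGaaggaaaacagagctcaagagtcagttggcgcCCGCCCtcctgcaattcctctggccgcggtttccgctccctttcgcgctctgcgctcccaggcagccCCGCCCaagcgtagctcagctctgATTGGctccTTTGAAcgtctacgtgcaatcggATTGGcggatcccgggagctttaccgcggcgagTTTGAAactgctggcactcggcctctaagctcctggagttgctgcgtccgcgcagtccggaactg
Ccnb2: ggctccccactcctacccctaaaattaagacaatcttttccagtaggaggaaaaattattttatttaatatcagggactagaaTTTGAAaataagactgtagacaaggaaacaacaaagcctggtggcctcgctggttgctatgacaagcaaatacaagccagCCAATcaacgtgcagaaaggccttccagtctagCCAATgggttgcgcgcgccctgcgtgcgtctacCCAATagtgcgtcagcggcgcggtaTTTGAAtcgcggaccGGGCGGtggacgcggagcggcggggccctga
Ccna1: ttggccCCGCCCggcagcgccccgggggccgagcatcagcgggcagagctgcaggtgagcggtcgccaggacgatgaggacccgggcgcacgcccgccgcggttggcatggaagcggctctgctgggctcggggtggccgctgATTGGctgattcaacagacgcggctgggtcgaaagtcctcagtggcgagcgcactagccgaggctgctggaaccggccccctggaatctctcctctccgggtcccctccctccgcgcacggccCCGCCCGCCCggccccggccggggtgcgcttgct
CHR matches, to the forms searched, were found in 0 of the 3 entries with a region and in 3 of the 5 without. The 3 were Cdk1 (at 180 to 185 and 236 to 241), Ccnb2 (at 84 to 89 and 255 to 260) and Cdc25b (at 258 to 263). Other forms of the CHR element were not searched, so an entry without a match may still hold one. Over 21263 entries of the 17492 protein-coding genes, some of which have several, a CHR match was present in 17.6%, in 9.62% of the 4469 with a region within 1 kb and in 19.7% of those without. The CCAAT box was matched in all 8 entries, against 38.2% of all entries, 34.8% of those with a region and 39.1% of those without. The GC box was matched in all 8 too, against 46.2% of all entries, 76.3% of those with a region and 38.2% of those without. The E2F match of Cdc25a and the MYB match of Hspa2 were of kinds held by 2.02% and 2.96% of all entries. A match describes these letters only and shows no bound factor.

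The share of promoters with a region rose with the number of CG dinucleotides in the entry, from 0.978% of entries with 0 to 4 through 7.89% with 5 to 13 and 22.9% with 14 to 24 to 54.2% with 25 to 67. All 8 entries were above the median of 13 for all entries. Among those with a region, Cdc25a had 18, Hspa2 had 21 and Cks2 had 30. Among those without, Ccnb2 had 19, Cdc25b had 20, Cdk1 had 24, Ccnb1 had 29 and Ccna1 had 35. The ranges of the 2 groups overlapped, at 18 to 30 with a region and 19 to 35 without. The entry with the most had no region, and the entry with the fewest had one. Whether CG content bears on which of these 8 genes had a region was not tested.

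**Figure D3:**
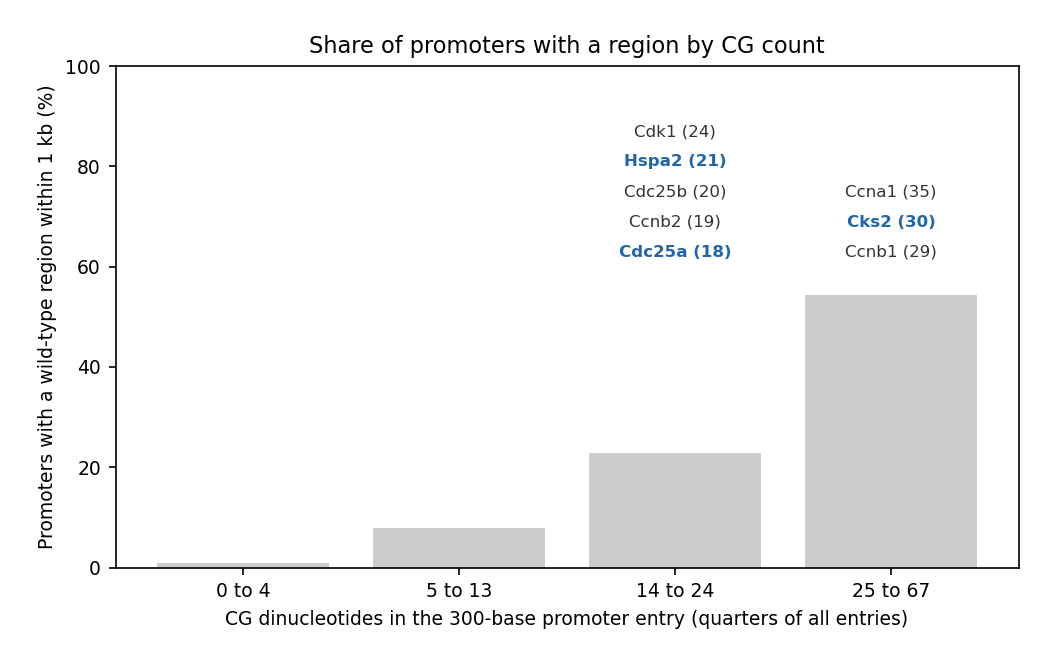
Share (%) of promoter entries of protein-coding genes with a WT region within 1 kb of the start, in 4 classes by the number of CG dinucleotides in the 300-base entry; names above the bars are the 8 genes with an entry, with their own number, in bold blue where a region was found. The share is 54.2% in the highest class, where Cks2 had a region and Ccnb1 and Ccna1 had none.

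Other genes of the division pathway were counted with the same window in 7 lists of 79 genes. A region lay at 37 of them (46.8%), and within 1 kb of the start at 19 of the 60 that have a start in the table (31.7%), against 29.3% and 21.7% of all protein-coding genes. No list gene had a knockout peak. The lists were short and chosen with earlier results of these data known, so these shares are descriptions only.

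For this list and the next, the shares of all protein-coding genes are 29.3% in the 10 kb window and 21.7% at the start. Of 15 other cyclin, CDK and CKS genes, 8 had a region. Of the 11 with a start in the table, 5 had it there. Ccne2 and Ccne1, the genes of the E-type cyclins that drive S-phase entry, had folds of 19.1 and 14.04 and of 9.33 and 16.9 in WT replicates 1 and 2. Ccnd3, a D-type cyclin gene, had 12.0 and 9.15, and the G1 kinase gene Cdk4 had 5.0 and 6.64. Cks1b, the paralogue of Cks2, had a region at its start too, with folds of 4.64 and 3.44, while Ccnb3 and Cdk2 had no peak in any list. Of 9 genes of CDK1 inhibitors and of the phosphatase pathway that opposes CDK1, 4 had a region. Of the 6 with a start in the table, 1 had it there. The strongest in the window of Arpp19 lay 9776 bp away near the start of Myo5a, and the region at the start of Arpp19 itself had folds of 4.59 and 2.99. Cdkn1c, a CDK inhibitor gene, had 7.59 and 9.73. Of the 3 WEE family kinase genes in this list, Pkmyt1 (4.17 and 8.39) and Wee1 (5.0 and 2.77) had a region that overlapped the gene. Wee2, the oocyte member, had none, and its only peak was in replicate 2, with a fold of 4.03.

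Of 10 genes of mitotic and meiotic kinases, 1 had a region, beside 29.3% of all protein-coding genes. This count rested on both libraries being required. It was 4 of 10 without WT replicate 2, beside 33.8% of all protein-coding genes. Aurka, Aurkb and Haspin had peaks in replicate 1 only (folds of 5.0, 3.70 and 2.71). The count was 2 of 10 without WT replicate 1, beside 39.3% of all protein-coding genes. Plk4 had a peak in replicate 2 only, with a fold of 2.98. At a −log10 q of at least 5 it was 0 of 10, beside 17.3% of all protein-coding genes. The gene with a shared region was Bub1, whose region (6.07 and 4.23) lay 7470 bp away at the start of Mtln, so that none of the 9 kinase genes with a start in the table had a region there. Plk1, Aurkc and Ttk had no peak in any list. Of 18 genes of the anaphase-promoting complex, the spindle checkpoint and separase, 5 (27.8%) had a region. Of the 15 with a start in the table, 3 (20%) had it there. Both shares are close to the 29.3% and 21.7% of all protein-coding genes. The stronger regions of this list, at Anapc2 (8.33 and 10.1) and Fzr1 (4.77 and 13.1), lay 8455 and 8729 bp away near the starts of Tprn and Mfsd12. Cdc16, a subunit of the anaphase-promoting complex, and Sgo1, a protector of centromeric cohesion, had regions at their own starts, with folds of 5.0 and 6.34 and of 3.97 and 7.55.

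Transcription regulators of the cell cycle had the highest share among lists of more than 2 genes, with 11 of 15 having a region and 7 of the 10 with a start in the table having it there. E2f5 had folds of 12.9 and 14.1 in WT replicates 1 and 2, and E2f1 had 10.5 and 12.3. Lin54, which encodes the DNA-binding subunit of the MuvB complex that binds CHR elements, had 7.14 and 8.06, and Mybl2, the gene of its mitotic partner B-MYB, had 6.43 and 8.73. The others were E2f2, E2f4, E2f6, E2f7, E2f8, Lin9 and Mybl1. Of 10 other HSP70 genes, 6 had a region, beside 29.3% of all protein-coding genes. Of the 7 with a start in the table, 2 had it there, beside 21.7%. Hspa8, the constitutive family member, had 6.97 and 10.7, and Hspa4 had 5.76 and 9.66. Hspa4l had 5.09 and 4.36 and Hspa9 had 3.42 and 6.84, so the family did not share which replicate was higher. Hspa1a and Hspa1l shared a region (5.0 and 4.77) at the start of Lsm2. Both testis genes linked to translation before the divisions had one: Boll, with 4.33 and 6.91 at its start, and Eif4g3, whose region (9.94 and 12.1) lay 8791 bp away near the start of Hp1bp3.

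**Figure D4:**
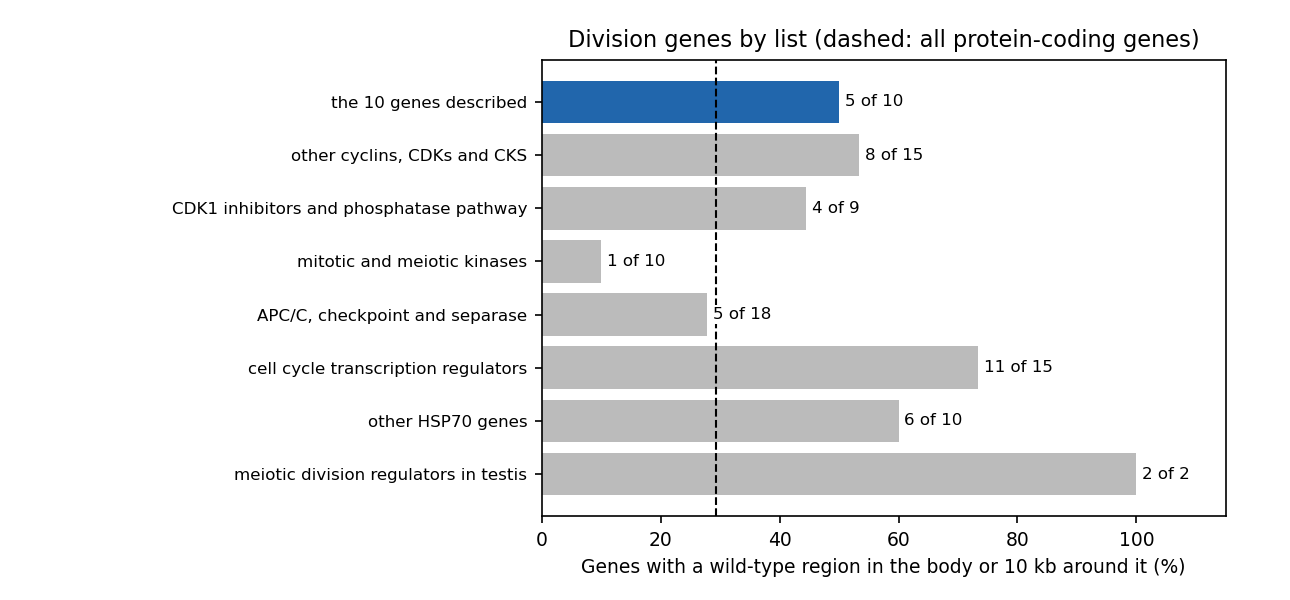
Share (%) of genes with a WT region in the body or 10 kb around it, for the 10 genes described (blue) and the 7 lists of other division genes (grey), with the counts beside the bars and the 29.3% of all protein-coding genes as a dashed line. The share is 73.3% for cell cycle transcription regulators, where the count of 11 genes became 3 at a −log10 q of at least 10. It is 10% for mitotic and meiotic kinases, where the count of 1 gene became 4 without WT replicate 2 and 2 without WT replicate 1.

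How firmly each gene counted as occupied depended on the setting. Ccna2 and Cdc25a kept a region under every setting tried with the 10 kb window. Cks2 and the Cdc25b window lost it when the replicates had to overlap by at least 50% of each peak, and Hspa2 lost it at a −log10 q of at least 5. The Cdc25b window also lost it when only the gene body was counted. At a −log10 q of at least 10 only Ccna2 and Cdc25a were left, 2 of 10 genes, beside 10.0% of all protein-coding genes. No setting or window, out to 20 kb, gave a region to Ccna1, Ccnb1, Ccnb2, Cdc25c or Cdk1.

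**Figure D5:**
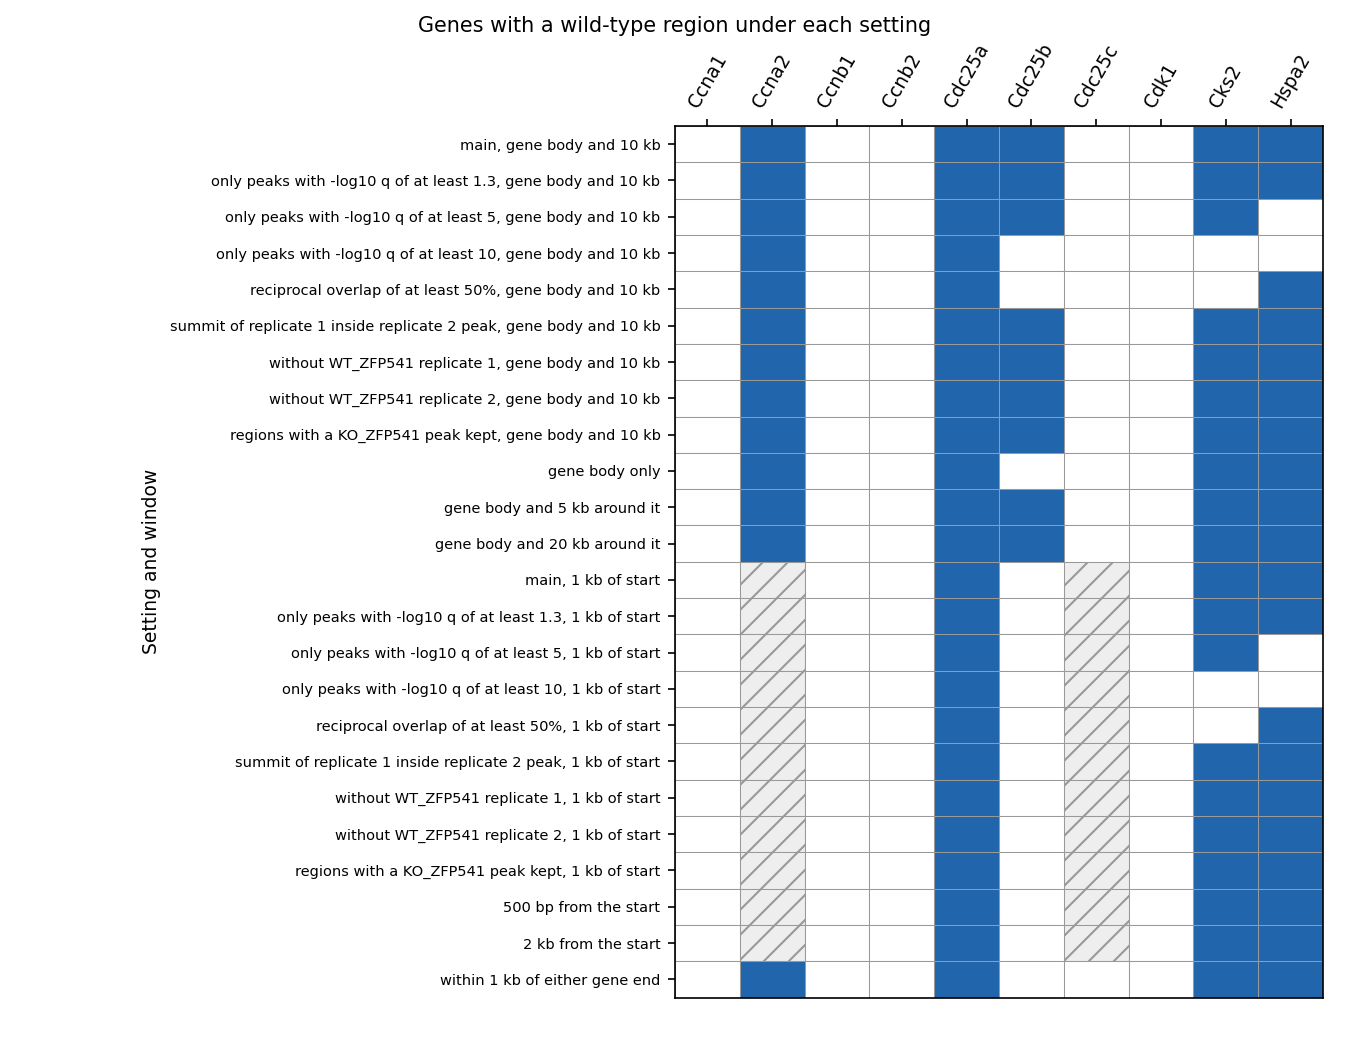
Genes with a WT region (blue) or without (white) under each setting and window tried, with 1 row per setting; hatched cells are genes with no start in the RefSeq table. Ccna2 and Cdc25a are blue in every row in which they could be counted, and Ccna1, Ccnb1, Ccnb2, Cdc25c and Cdk1 in none.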

How the data were processed

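ChIP-seq peak lists of 3 libraries were used: 1 knockout and 2 WT. The submitters' processing notes name MACS2 2.2.6, Bowtie2 2.3.5, cutadapt 2.6, deepTools 3.5.0, Picard and SAMtools 1.10, and the build mm10. Not given in the sources used here are their settings, the control of each call and the threshold. Each deposited list belongs to 1 library, per the labels, and gives a fold enrichment (a ratio), a −log10 p and a −log10 q per peak, and a score that is the −log10 q times 10 without decimals. These are the authors' values.

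Peaks sharing at least 1 bp between the WT replicates were joined, and regions with a knockout peak removed. Gene positions were read from RefSeq (GRCm38.p6), without 108 protein-coding entries that start before 3 Mb on autosomes and X, and transcription starts and promoters from the RefSeq promoter table of the same assembly. Percentiles rank fold within a library. All 10 genes were named, and of each list up to 4 genes with a region by mean percentile. Cks1b, Ccnb3, Cdk2, Wee2, Plk1, Plk4, Aurka, Aurkb, Aurkc, Haspin, Ttk, Hspa4l, Hspa9 and the further transcription regulators were named after their values were seen. Genes and lists were chosen with earlier results of these data known. No test was run. Read depth is unknown. The region step was tested on simulated data. Alternatives were peak thresholds, overlap rules, single replicates, knockout peaks kept, windows and the choice of peak. Python 3.11.15, numpy 2.4.6, pandas 2.3.3 and matplotlib 3.10.9 were used.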

Additional observations from a re-analysis of the deposited data

How the results depend on the processing

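Of the 10 genes, 5 had a region, beside 29.3% of all protein-coding genes. The count was 3 with a reciprocal overlap of at least 50%, beside 22.0% of all protein-coding genes. It was 2 where −log10 q had to reach 10, beside 10.0%. Within 1 kb of the start, 3 of 8 genes became 1 at a −log10 q of at least 10. The share of all protein-coding genes with a start went from 21.7% to 6.85%. Of the 79 list genes, 37 had a region, and 19 of 60 did within 1 kb of the start. In the 10 kb window, 19 had one where −log10 q had to reach 5, beside 17.3% of all protein-coding genes. Where it had to reach 10, 12 did, beside 10.0%. Without either WT replicate the counts were 5 to 5 for the 10 genes, 3 to 3 at the start and 45 to 45 for the lists. The share of all protein-coding genes was 39.3% without replicate 1 and 33.8% without replicate 2. At the start it was 28.6% and 24.5%. Among single lists, the kinase count of 1 was 2 to 4 without either replicate. At a −log10 q of at least 5 or at least 10 the kinase count was 0. All other settings left the counts of the 10 genes and of the 79 list genes within 1.5 times. Counts of single lists moved by more than that in 15 of 56 comparisons. Taking the peak nearest to the start in place of the strongest changed the mean fold of the 2 WT libraries only at Cdc25b, where it was 6.49 in place of 7.74. A stricter threshold removes peaks by construction. Unknown depth and a single knockout library limit every absence reported. No paired analysis was possible because the result comes from no test and only 1 knockout library has a peak list.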
